A study of Mus musculus with 25 samples.

Results

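Wild-type mouse zygotes were compared with wild-type early 2-cell embryos, across the first cell division. The comparison used 7 of the 25 libraries of the study, chosen by the group names in the sample titles: 4 of zygotes at the pronuclear stage named PN3 and 3 of early 2-cell embryos (E2C). Of 24412 gene symbols, the 9754 with a value of at least 1 in at least 3 of these 7 libraries were tested. The values are the authors' FPKM (fragments per length of transcript, relative to all fragments of the library), rescaled here so that the median gene with a value of at least 1 in all 7 libraries was level between libraries, and called scaled FPKM. Differences are on the scale of log2(scaled FPKM + 1), E2C minus PN3. A difference of 1 is a doubling of a well expressed gene, and the change of a low gene is understated.

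The study set embryos from wild-type oocytes against embryos whose oocytes lacked Smarca4 (Brg1), an ATPase of the BAF chromatin remodelling complex, and sampled MII oocytes, PN3 zygotes, E2C and late 2-cell embryos (L2C). Per the labels' protocols, oocytes came from females aged 8 to 12 weeks, either B6D2F1 or C57BL/6 with floxed Smarca4 and a Gdf9 Cre, a driver active in oocytes. The females were superovulated with 7 IU of PMSG and, 48 h later, 5 IU of hCG, and the oocytes were fertilised by intracytoplasmic sperm injection. The labels do not give the strain behind each wild-type library, and they name no allele or treatment by which the 2 wild-type groups would differ. Ribosomal RNA was depleted and the libraries were stranded and read in pairs. No label says that replicates came from separate females or collections, so the p-values speak of the spread among these libraries alone, and that spread may be technical. The 12 knockout libraries entered only 1 of the alternative fits, and the wild-type libraries of MII oocytes (3) and L2C embryos (3) served as a second measure that shares no library with the comparison.

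The fertilised mouse egg runs on RNA and protein stored by the oocyte, and these maternal RNAs are cleared by deadenylation and decay. Transcription begins at a low level in the zygote, and a first wave of multicopy and repeat-linked genes, such as the Zscan4 cluster downstream of the double homeobox factor Dux, precedes the larger genome activation of the late 2-cell stage. The RNA of an early 2-cell embryo is therefore a mixture of remaining maternal and new embryonic molecules, which these libraries do not separate.

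Library E2C replicate 2 stood apart: it listed 9345 genes above 0, against 13793 and 15560 in the other E2C libraries and 15126 to 16698 at PN3, and 69 genes at 0 in it exceeded an FPKM of 5 in the other E2C libraries. Replicates varied more at E2C (median SD of a gene 0.369 on the log2 scale) than at PN3 (0.123), and the read depth is unknown. All 9 markers of oocytes and zygotes were detected, with summed levels of 3138 to 3296 at PN3 and 3733 to 4157 at E2C; Btg4 and Dppa3, the most abundant, were called higher, 6 were called lower and Bmp15 was not called. All 8 markers of 2-cell embryos were detected, with sums of 236.5 to 259.3 and 362.8 to 457.8. Sp110, which was not called, made up most of the zygote sum (216 to 234), and the other 7 were called higher. Markers of cumulus and granulosa cells summed to 7.65 to 9.20 at PN3 and 1.30 to 8.62 at E2C, with Inha, Fst, Areg and Ereg at 0 in all 7 libraries. Sperm and testis markers summed to 71.5 to 86.8 and 92.7 to 124.1, nearly all of it from Odf2 (65.3 to 78.0 and 86.2 to 118.7), which is also a centriole protein of other cells. Prm2, a sperm protamine, was at 4.52 to 6.84 and then at 1.20 to 2.94, and Tnp1 and Tnp2 were at 0 in all 7. Blood and immune markers summed to at most 4.44 in any library, with 8 of 20 at 0 in all 7, among them Ptprc and every listed globin gene except Hba-a2, which was at 1.23 in E2C replicate 3 and at 0 elsewhere.

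Many of the genes that gained most share short words in their promoters, and some of these are shown first. Windows from 250 bases before to 50 bases after the annotated start were taken from RefSeq (GRCm38.p6) and searched on both strands for GGATTA, the core of sites bound by bicoid-type homeodomain proteins, and for a form of the site of Dux, TGATT and ATCA with any 2 bases between them. The stretches below lie upstream of the start and are written 5′ to 3′ on the strand of the gene. Capitals mark the matches, and TAATCC is GGATTA read on the opposite strand. Genes of the Zscan4 cluster encode zinc finger proteins known from 2-cell embryos and from a minority of embryonic stem cells, and 4 of them, chosen after their values were seen except Zscan4d, held the longer word on the opposite strand.
Zscan4c, chr7:11005610-11005669, plus strand: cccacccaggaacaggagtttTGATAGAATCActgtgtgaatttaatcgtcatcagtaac
Zscan4d, chr7:11166224-11166283, minus strand: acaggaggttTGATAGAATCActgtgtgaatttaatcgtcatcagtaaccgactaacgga
Zscan4b, chr7:10905126-10905185, minus strand: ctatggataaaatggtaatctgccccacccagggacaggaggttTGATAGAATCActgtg
Zscan4f, chr7:11397780-11397839, plus strand: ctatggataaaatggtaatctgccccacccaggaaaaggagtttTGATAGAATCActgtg
Zfp352, a zinc finger gene of the 2-cell stage, held 9 copies of the shorter word on the opposite strand between 227 and 61 bases before its start, in a tandem repeat.
Zfp352, chr4:90218585-90218769, plus strand: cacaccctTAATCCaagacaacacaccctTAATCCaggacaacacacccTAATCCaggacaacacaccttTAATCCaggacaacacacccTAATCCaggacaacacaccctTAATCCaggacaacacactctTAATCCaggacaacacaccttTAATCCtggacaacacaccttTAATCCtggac
Of the 12 largest rises under the naming rule, 8 had a window in the RefSeq table. All 8 held the shorter word, Zfp352 on the opposite strand alone and 7 on their own strand. Genes of the cluster on chromosome 10 held it 89 bases before the start, and the printed stretches of Gm20765 and Gm21312 are identical.
Gm20765, chr10:104185428-104185467, plus strand: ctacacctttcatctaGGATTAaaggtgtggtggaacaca
Gm21312, chr10:104176919-104176958, plus strand: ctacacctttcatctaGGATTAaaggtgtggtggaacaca
Gm8994 (Eif4a3l1 in RefSeq), chr6:136327434-136327473, plus strand: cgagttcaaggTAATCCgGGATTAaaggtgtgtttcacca
BB287469, chr12:87816372-87816511, plus strand: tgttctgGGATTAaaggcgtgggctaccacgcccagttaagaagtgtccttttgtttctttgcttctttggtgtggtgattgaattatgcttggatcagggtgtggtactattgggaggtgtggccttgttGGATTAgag
Gm428, chr4:73683389-73683418, plus strand: catgggatgtaGGATTAaaggccccaggtc

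From PN3 to E2C, 1525 of the 9754 genes were called higher (15.6%) and 2066 lower (21.2%) by limma with Benjamini-Hochberg adjustment over all genes tested. At least 2-fold changes were called for 454 genes upward (4.65%) and 1042 downward (10.7%). The libraries of the groups did not overlap for 4515 genes (46.3%), and the median difference of all genes was -0.11. Genes called higher took 26.6% to 27.3% of the summed scaled FPKM in the PN3 libraries and 44.5%, 45.8% and 44.3% in E2C replicates 1 to 3. Genes called lower took 29.7% to 30.6% at PN3 and 13.7%, 13.6% and 14.8% at E2C. These genes were chosen from the same libraries, so the shares only describe them. In bulk libraries fewer cells and less RNA per cell cannot be told apart, and a loss shared by all genes does not show.

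The number of calls moved with the model of the spread and with the scale. With a variance for each group, 857 genes were called higher and 1432 lower. With FPKM as deposited, 898 were higher and 2874 lower, so that 23.8% of calls were upward against 42.5% after scaling, and the median of all genes moved by -0.183. Without E2C replicate 2, 2193 were higher and 2473 lower, and the median moved by 0.104. In simulated data with the unequal spread of the 2 groups, more of the calls were false than the threshold allows, and the share was lower, though still above it, with a variance for each group. The simulated data held far fewer changed genes than were called here, so the share among these calls may differ. Calls under the other settings were followed for 126 named genes. Of these, 15 lost the call with that variance: Actb, Dpf3, Esrrb, Fars2, Gdf9, Lars2, Mos, Mrps14, Mrps2, Nlrp2, Odf2, Prm2, Setdb1, Tbx3 and Uhrf1. Genes named only as members of a list were not all among the 126, and of these Tle6 and Mrps23 also lost it. No called gene that could be tested changed sign under any of the 15 alternatives.

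**Figure D1:**
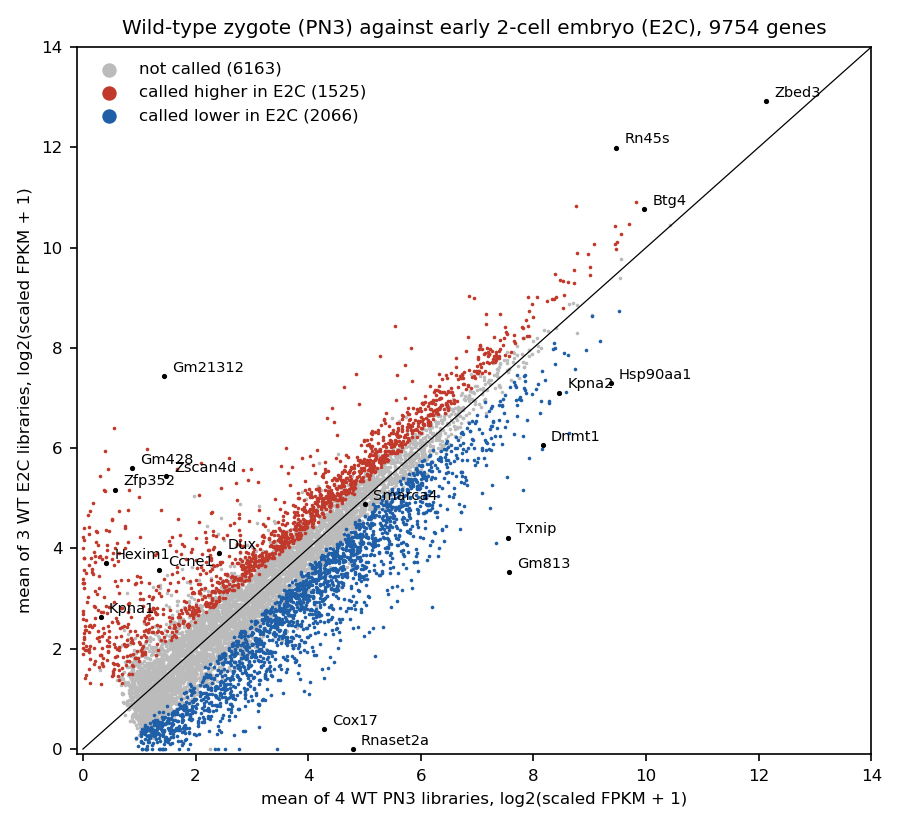
Mean level of each of 9754 genes at PN3 (x axis, 4 libraries) and at E2C (y axis, 3 libraries), both as log2(scaled FPKM + 1), with genes called higher in red, called lower in blue and the line of equal level in black. Gm21312 and Zfp352 lie low at PN3 and far above the line, Txnip, Gm813 and Rnaset2a lie far below it, and the abundant Zbed3 and Btg4 lie a little above it.

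Of 57 listed 2-cell genes 53 were tested, of which 46 were called higher and 1 lower. Their median difference was 3.43 against -0.11 for all genes, but 32 of the 53 were under 1 in every PN3 library and could enter the test only through E2C. Of the 14 members with FPKM of at least 1 in all 7 libraries, 7 were called higher. Zscan4d was at 1.88, 1.92, 1.78 and 1.56 in PN3 replicates 1 to 4 and at 33.0, 41.1 and 52.7 in E2C replicates 1 to 3, the order used throughout. Every E2C library lay above every PN3 library, with a difference of 3.94 (SE 0.18, adjusted p = 1.16e-05). All 5 Zscan4 genes tested were called higher (3.94 to 4.58), as were all 5 Usp17l deubiquitinase genes (3.12 to 4.10) and all 5 Tdpoz genes (2.14 to 3.16). Copies in these clusters are alike, and the sources used here do not say how fragments shared by copies were counted, so the value of a single copy is uncertain.

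Zfp352 was at 0.605, 0.830, 0.419 and 0.0996 at PN3 and at 23.7, 27.1 and 54.6 at E2C. Its difference was 4.53 (SE 0.31, adjusted p = 5.2e-05), and E2C replicate 3 was the highest library. Tmem92, a membrane protein gene of this stage, was at 0.471, 0.508, 0.419 and 0.345 and then at 20.4, 20.3 and 28.6, a difference of 4.05. Dux, the upstream factor, was already present in all 4 zygote libraries, at 5.87, 5.19, 3.07 and 3.26, and was at 13.3, 10.9 and 17.9 at E2C. The groups did not overlap, and the difference was 1.50 (SE 0.25, adjusted p = 0.00272). Arg2, a mitochondrial arginase and the listed gene called lower, went from 65.6, 62.9, 68.3 and 64.9 to 19.4, 40.0 and 33.6. The 6 members not called were Sp110, Rnf123, D5Ertd577e, Zfp750, AA792892 and C87499.

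The largest rises of all belonged to multicopy genes without an established name. Gm21312 was at 2.41, 2.64, 0.803 and 0.958 at PN3 and at 214, 254 and 50.4 at E2C, a difference of 5.78 (SE 0.55, adjusted p = 0.000221). Gm20765 was at 0.966, 0.603, 0 and 0.282 and then at 81.6, 122 and 47.3, a difference of 5.80 (SE 0.34, adjusted p = 2.89e-05). Copies of the cluster differed in which E2C library was highest: Gm21312 and Gm20765 were lowest in replicate 3, where Gm21293 (17.4, 40.3 and 123) and Gm6763 (15.1, 14.2 and 75.8) were highest. Gm8994, which RefSeq names Eif4a3l1 after the RNA helicase Eif4a3, went from 0.341, 0.437, 0.0374 and 0.135 to 36.1, 55.4 and 35.8. Eif4a3 itself, named after its values were seen, was not called, at 22.9 ± 4.27 (SD, n = 4) and 26.1 ± 3.20 (SD, n = 3). Gm428 went from 1.36, 0.387, 0.864 and 0.687 to 37.0, 55.8 and 49.6, above every zygote library.

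**Figure D2:**
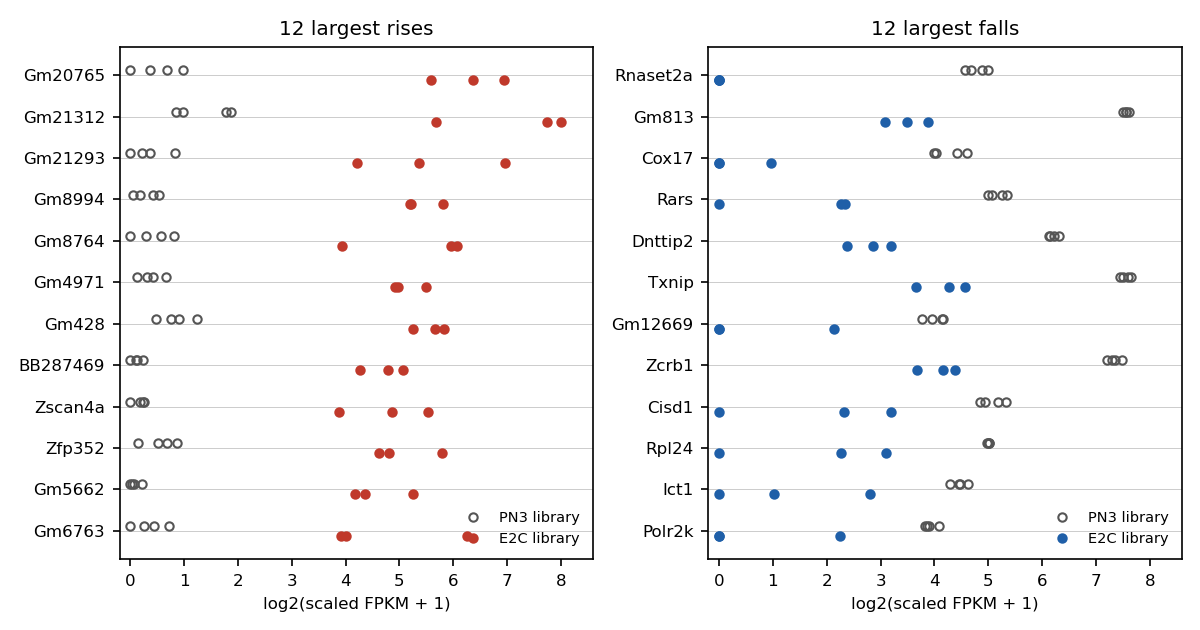
Levels of the 12 largest rises (left) and the 12 largest falls (right) under the naming rule, as log2(scaled FPKM + 1), with open points for the 4 PN3 libraries and filled points for the 3 E2C libraries. The groups do not overlap for any of the 24 genes, and several falls, such as Cox17 and Polr2k, have E2C libraries at 0.

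The eIF1A-like genes are copies of the start-codon factor eIF1A that are expressed at the 2-cell stage. Of 11 tested, 9 were called higher and 1 lower, with a median of 3.77, and 8 were under 1 in every PN3 library. BB287469 was at 0.0697, 0, 0.175 and 0.0931 at PN3 and at 18.1, 32.7 and 26.6 at E2C, and Gm5662 was at 0.0541, 0, 0.0208 and 0.167 and then at 17.1, 19.6 and 36.9. Both were near 0 in every zygote library. The member called lower was Eif1ax, the X-linked gene of the factor itself, which fell from 95.3, 96.2, 100.5 and 91.2 to 25.0, 45.4 and 36.7, a difference of -1.44 (SE 0.18, adjusted p = 0.000729).

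Many of the strongest rises were neighbours on the chromosome. On the log2(scaled FPKM + 1) scale there were 71 genes at least 8-fold higher, 53 of them under 1 in every PN3 library and 66 with an E2C mean of at least 10, and 15 genes at least 8-fold lower. The 71 together took at most 0.0168% of the summed scaled FPKM in a PN3 library and 0.585%, 0.765% and 0.796% in the E2C libraries. Of the 68 with a RefSeq position, 45 lay within 1 Mb of another of them, in 12 runs. The 5 Zscan4 genes span chr7:10794241-11402318, 8 genes that include BB287469 and Gm5662 span chr12:87514316-88321762, and 7 that include Gm21312 and Gm20765 span chr10:104142987-104196522 (GRCm38.p6).

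The words shown above were counted in the windows of these genes. A RefSeq window matched 46 of the 71 genes (64.8%), so the shares describe these 46 and not the whole set. These windows differed from those of other genes in composition, with a median GC content of 46.8% and 2 CpG, against 61% and 21 over all tested windows. GGATTA occurred in 43.5% of the 46 windows, in 17.2% of windows of genes at least 2-fold higher, in 6.13% of those at least 2-fold lower, in 5.83% of 7803 tested genes with a window and in 7.06% of all 32851 windows. The Dux form occurred in 8.70%, 1.59%, 0.120%, 0.128% and 0.207% of the same sets, and the 4 carriers among the 46 were the Zscan4 genes shown. Other words searched were also more frequent in the 46 windows than in tested windows, at 71.7% against 40.7% for CCAAT, 26.1% against 7.27% for TATAAA and 19.6% against 11.8% for AGGTCA, on either strand. Over all 32851 windows these were in 37.4%, 13.6% and 16.3%. Copies count many times in these shares: the 46 windows formed 31 groups of alike windows, the largest with 8 members, and 11 groups (35.5%) held GGATTA.

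The letters that follow the shorter word were shared as well. The word GGATTAAAGG, chosen after the windows were seen, was found on either strand in 17 of the 46 windows (37.0%), in 8 groups of alike windows, against 0.385% of tested windows and 0.329% of all windows. Outside the genes at least 8-fold higher, whose windows gave the word, 13 tested genes held it, of which 4 were called higher, 2 lower and 7 were not called. The lower genes were Pdcd2l (-1.33) and Slc9a3 (-0.49), and Sp110 (-0.11) of the 2-cell list was among those not called. The same letters occur in the consensus of the B1 family of short interspersed repeats, and the presence of B1 copies in these windows was not tested.

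**Figure D3:**
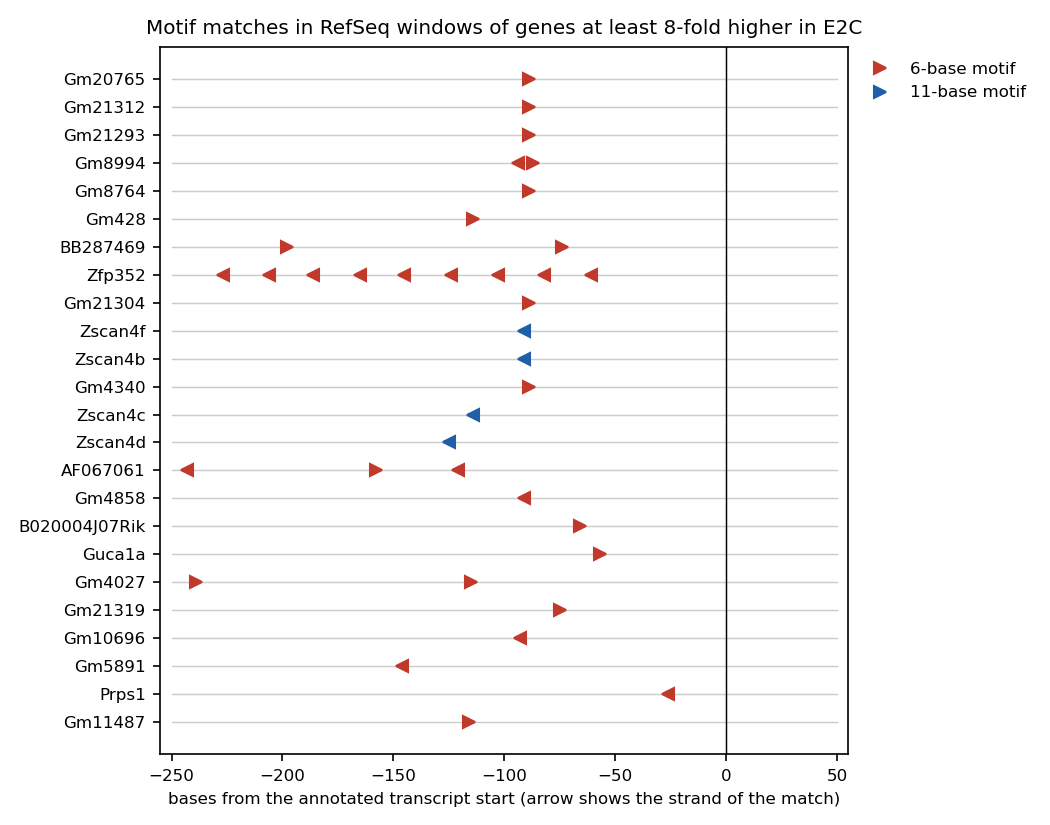
Matches to the 6-base motif (red) and the 11-base motif (blue) in RefSeq windows of genes at least 8-fold higher at E2C, by distance in bases from the annotated start, for the 24 genes with a match, with arrows for the strand. Zfp352 has 9 evenly spaced matches, and 6 genes of the chromosome 10 cluster have theirs at the same place, 89 bases before the start.

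Regulators of Dux and the 2-cell programme changed by member. Of 21 tested, activators and repressors together, 9 were called higher (42.9%) and 3 lower (14.3%), against 15.6% and 21.2% of all genes. With a variance for each group, 3 were higher and 2 lower. Chaf1a, the large subunit of the chromatin assembly factor CAF-1, fell from 151, 158, 155 and 168 to 76.9, 76.1 and 71.8, a difference of -1.06 (SE 0.08, adjusted p = 6.4e-05). Ncl, nucleolin, fell from 131, 146, 111 and 108 to 46.4, 54.3 and 49.3. The loss of CAF-1 or nucleolin is known to release 2-cell genes in embryonic stem cells. A link between these falls and the 2-cell rises here was not tested, and most called members of the list rose. Setdb1, a histone H3K9 methyltransferase, was at 69.8, 69.4, 72.0 and 67.8 and then at 60.0, 55.9 and 52.6, a difference of -0.31 (adjusted p = 0.0228), and was not called with a variance for each group (adjusted p = 0.117). Dppa3 (Stella), which protects DNA methylation in the zygote, rose from 789.9, 823, 734 and 672 to 1169, 1305 and 1211.

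Obox homeobox genes changed in both directions. Of 6 tested, Obox1, Obox3, Obox5 and Obox6 were called higher and Obox2 lower. The abundant maternal Obox5 went from 331, 354, 349.6 and 301 to 703, 592 and 836, a difference of 1.07 (SE 0.12, adjusted p = 0.000489), and Obox2 from 380.1, 421, 399.7 and 361 to 184, 200.5 and 311. Obox6 was near 0 in every zygote library, at 0, 0.0821, 0.0578 and 0, and at 6.98, 4.55 and 3.22 at E2C. Obox3 was at 0.184, 0.472, 0.561 and 0.642 and then at 7.20, 1.13 and 11.7, with E2C replicate 2 close to the zygotes.

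Other transcription factors of early development moved both ways. Of 18 tested, 5 were called higher (Klf4, Yap1, Gabpa, Pou5f1, Tbx3) and 5 lower (Nfya, Nfyc, Nobox, Esrrb, Sall4), of which 3 were lower with a variance for each group. Each share was 27.8%, against 15.6% higher and 21.2% lower of all genes. Pou5f1, the pluripotency factor Oct4, rose from 139.9, 136, 139 and 149 to 220.4, 291 and 202, and Gabpa, an ETS factor, from 0.193, 0.242, 0.123 and 0.0978 to 2.10, 1.57 and 3.44. Nfya, a subunit of the CCAAT-binding factor NF-Y, fell from 78.3, 77.7, 72.2 and 66.8 to 29.7, 25.2 and 33.6, a difference of -1.30 (SE 0.12, adjusted p = 0.000195). Nr5a2, an orphan nuclear receptor, was not called, at 15.1, 12.6, 11.1 and 10.4 and 17.2, 10.6 and 12.4 (adjusted p = 0.709), and neither was Klf17 (adjusted p = 0.084). The libraries of both stages overlapped for these last 2 genes.

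Of 67 small nucleolar RNA genes tested, which guide modification of ribosomal RNA, 47 were called higher, 0 lower and 20 were not called, with a median of 1.73, and 34 were called higher with a variance for each group. The H/ACA genes (Snora) had 23 of 30 called higher and the C/D genes (Snord) 24 of 37. Snora75 was at 1.45, 2.75, 1.60 and 2.18 at PN3 and at 25.2, 18.4 and 9.87 at E2C, a difference of 2.58 (SE 0.31, adjusted p = 0.000606). Of 15 spliceosomal and other small nuclear RNA genes, 12 were called higher (80.0%) and 0 lower, with a median of 1.56. Of 18 microRNA genes 7 were called higher (38.9%) and 1 lower (5.6%), against 15.6% and 21.2% of all genes. Rmrp, the RNA of the RNase MRP that cuts the ribosomal RNA precursor, went from 4.27, 3.25, 1.83 and 3.86 to 38.0, 82.3 and 32.4, a difference of 3.51 (SE 0.34, adjusted p = 0.000241). Rnu11, of the minor spliceosome, went from 17.6, 26.1, 33.0 and 34.4 to 309, 129.8 and 91.2.

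Within both of these lists the E2C libraries kept the same order, with medians of 2.41, 1.72 and 1.13 for the small nucleolar RNAs and 2.24, 1.74 and 0.97 for the small nuclear RNAs. Rn45s, the ribosomal RNA precursor that the depletion step removes in part, was at 529.5, 479, 1037 and 776 at PN3 and at 2622, 2210 and 7408 at E2C, highest in replicate 3, where the small RNAs were lowest. The small nucleolar RNA genes have a median transcript length of 121 bases, and the FPKM of such short genes depends on how length was corrected. The part of depletion, RNA quality or length in these values was not tested.

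Replication-dependent histone genes, which are made in S phase, were called higher in 37 of 57 and lower in 0, with a median of 1.18, and in 22 with a variance for each group. Counts by class were 16 of 18 for H2A, 9 of 15 for H2B, 6 of 8 for H3, 4 of 11 for H4 and 2 of 5 for H1. Hist1h1b, an H1 gene, was at 0.205, 0.560, 0.300 and 0.321 at PN3 and at 8.93, 25.7 and 9.12 at E2C, highest in replicate 2, a difference of 3.37 (SE 0.36, adjusted p = 0.000358). Hist2h2aa2, whose copies are near-identical and share fragments, went from 0.764, 2.49, 1.38 and 1.82 to 37.2, 19.9 and 21.1. The oocyte linker histone H1foo moved the other way, from 264, 251, 358 and 371 to 114, 122 and 118, a difference of -1.37 (SE 0.15, adjusted p = 0.000427). Npm2, an egg histone chaperone, fell from 568, 563, 594 and 599.5 to 243, 282 and 321, while the linker variant H1f0 rose from 29.9, 29.9, 27.4 and 31.6 to 63.9, 83.7 and 49.0.

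Cell cycle genes changed one by one. Of 19 regulators of the passage from G1 to S, 6 were called higher (31.6%, against 15.6% of all genes) and 0 lower. With a variance for each group 3 were higher. Ccne1, the cyclin E that partners Cdk2, was at 1.54, 1.54, 1.42 and 1.74 at PN3 and at 12.5, 9.47 and 10.6 at E2C, a difference of 2.20 (SE 0.17, adjusted p = 8.37e-05). Of 51 replication genes, 12 were called higher (23.5%) and 15 lower (29.4%), against 15.6% and 21.2% of all genes. Gmnn (geminin), which blocks the licensing of origins, rose from 30.9, 38.6, 34.1 and 31.2 to 65.2, 87.2 and 81.1, and Gins1, part of the replicative helicase, fell from 19.9, 19.4, 21.1 and 18.9 to 3.29, 0 and 4.44. Ccna2, the cyclin of S and G2 phase, rose from 51.3, 47.5, 51.0 and 49.4 to 81.5, 72.5 and 93.3.

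Of 40 regulators of meiosis and M phase, 7 were called higher (17.5%) and 9 lower (22.5%), near the shares of all genes. Fbxo5 (Emi1), an inhibitor of the anaphase-promoting complex, fell from 46.4, 52.8, 52.9 and 49.3 to 7.61, 20.6 and 15.5, and its relative in the egg, Fbxo43 (Emi2), rose from 37.0, 37.3, 35.1 and 32.7 to 54.2, 49.5 and 69.3. Pttg1 (securin) rose from 269.5, 262, 276 and 264 to 454, 531 and 555. Cdc25a, a phosphatase that activates cyclin-dependent kinases, fell from 45.6, 44.6, 48.9 and 48.7 to 14.8, 24.5 and 21.0, and the spindle checkpoint kinase Bub1b from 47.8, 51.6, 92.9 and 97.0 to 18.5, 17.5 and 14.4. Bub1b, H1foo, Gdf9 and Padi6 were all higher in PN3 replicates 3 and 4 than in 1 and 2. Mos, the kinase that holds the egg in metaphase, had fallen before PN3, from a mean of 109 at MII to 3.80, 5.62, 7.53 and 8.76, and was at 3.79, 1.82 and 1.74 at E2C (adjusted p = 0.024, or 0.162 with a variance for each group). Ccnb1, cyclin B1, was not called, at 212, 213, 192 and 186 and 182, 197 and 289.

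Proteasome genes were mostly lower, outside the beta ring. Of 33 tested, 25 were called lower, 3 higher and 5 were not called, with a median of -1.10 and medians of -0.95, -1.02 and -0.99 in the 3 E2C libraries. The alpha ring had 6 of 7 genes called lower, the ATPases of the regulatory particle 6 of 6 and its other subunits 10 of 13, while the beta ring, which holds the proteolytic sites, had 3 lower and 2 higher of 7. Psma6 went from 38.8, 42.2, 43.1 and 43.7 to 9.13, 5.46 and 7.86, a difference of -2.36 (SE 0.16, adjusted p = 4.89e-05), and Psmd12 from 40.2, 43.7, 45.0 and 45.6 to 6.68, 8.67 and 9.89. The genes called higher were Psmb6, from 18.8, 18.4, 19.7 and 20.7 to 44.5, 57.3 and 34.8, Psmb3 (1.05) and Psmd3 (0.76).

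**Figure D4:**
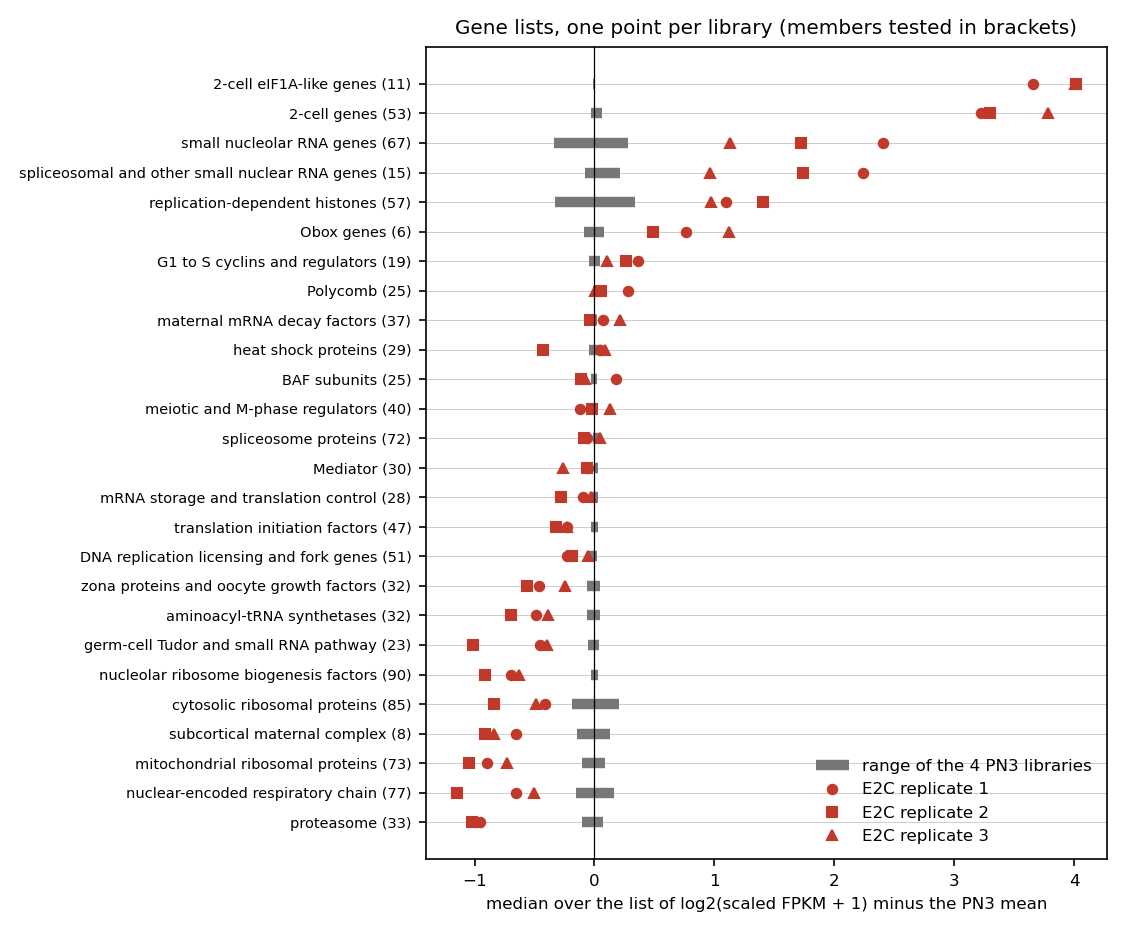
Median over each gene list of the difference from the PN3 mean, in log2(scaled FPKM + 1), with 1 point per E2C library, the range of the 4 PN3 libraries as a grey bar and the number of members tested in brackets. The E2C points lie right of the bar for 2-cell genes (3.22, 3.30 and 3.78), small nucleolar RNAs and histones, and left of it for the proteasome (-0.95, -1.02 and -0.99) and the mitochondrial and nucleolar lists.

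Nuclear genes for mitochondria leaned downward. Of 73 mitochondrial ribosomal protein genes, 37 were called lower and 4 higher (Mrpl3, Mrps2, Mrps14 and, named after its values were seen, Mrps23), with a median of -0.84. With a variance for each group 1 was higher. In E2C replicate 2, 28 of the 73 were at 0, against 1515 of all 9754 genes tested, and without that library 42 were called lower. Of 77 genes of the respiratory chain, 29 were called lower and 2 higher, with a median of -0.94. In E2C replicate 2, 31 of the 77 were at 0, without that library 39 were called lower, and without PN3 replicate 4 the count was 19. Ndufc2 of complex I went from 4.69, 4.38, 7.02 and 7.19 to 0 in all 3 E2C libraries. Cox17, a copper chaperone for cytochrome oxidase that is not in the list, went from 15.3, 15.0, 20.3 and 23.5 to 0, 0 and 0.942, a difference of -3.94 (SE 0.29, adjusted p = 6.4e-05). The respiratory genes called higher were Atp5b, from 58.6, 57.4, 62.7 and 61.3 to 106, 133 and 88.9, and Cox6b2, a testis-type subunit, from 12.5, 14.4, 13.7 and 12.6 to 40.9, 21.3 and 31.8.

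Factors of ribosome assembly in the nucleolus were called lower in 48 of 90 and higher in 8, with a median of -0.67. Gnl2, a GTPase of large subunit assembly, went from 35.0, 36.1, 42.3 and 43.7 to 5.41, 3.71 and 4.07, a difference of -2.91 (SE 0.15, adjusted p = 1.61e-05). Dnttip2, a nucleolar factor that is not in the list, went from 69.3, 78.7, 69.5 and 74.0 to 6.25, 4.17 and 8.10. In a separate list of the RNA polymerase I machinery, 5 of 13 genes were called lower (38.5%) and 1 higher (7.69%). The shares of all genes were 21.2% and 15.6%. Taf1a, of the selectivity factor of RNA polymerase I, fell from 82.3, 83.6, 89.0 and 80.2 to 12.1, 18.5 and 20.0, and its partner Taf1b from 23.0, 23.1, 22.7 and 20.0 to 4.30, 0 and 4.79. Rrs1 was among the nucleolar factors that rose, from 1.26, 1.28, 0.919 and 1.51 to 8.99, 4.72 and 4.22.

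Cytosolic ribosomal protein genes were mixed, with 33 of 85 called lower (38.8%) and 16 higher (18.8%), against 21.2% and 15.6% of all genes. Their median was -0.69, and 20 members were at 0 in E2C replicate 2. Rpl36al fell from 46.8, 53.9, 55.7 and 68.0 to 8.99, 4.26 and 11.4, and Rplp1 rose from 18.5, 11.8, 14.3 and 19.4 to 39.8, 75.0 and 35.3. Rpsa was near 1 in every zygote library, at 1.25, 1.22, 0.939 and 0.936, and at 3.91, 12.8 and 4.29 at E2C. This family has many processed copies in the genome, which makes single members uncertain.

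Translation factors also split. Of 47 initiation factors 16 were called lower (34.0%) and 7 higher (14.9%), against 21.2% and 15.6% of all genes. In eIF3, the scaffold of the initiation complex, 7 of 14 were lower and 1 was higher. Eif3e fell from 45.0, 50.0, 40.7 and 38.5 to 5.85, 2.54 and 9.99, and Eif3i rose from 37.8, 36.1, 40.5 and 43.2 to 71.0, 70.1 and 69.5. Aminoacyl-tRNA synthetases were called lower in 14 of 32 and higher in 2, Fars2 and Lars2, both mitochondrial enzymes. Neither of these 2 was called with a variance for each group (adjusted p = 0.0834 and 0.0814). In E2C replicate 2, 11 of the 32 were at 0. Rars, for arginine, fell from 31.1, 32.7, 39.9 and 37.3 to 3.79, 0 and 4.04. Lars2 was at 27.6, 24.4, 57.3 and 42.4 and then at 90.4, 76.8 and 517, and its 7 values had the same order within each group as those of Rn45s.

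Genes of the egg's own structures fell in part. In the subcortical maternal complex, a lattice needed for the first divisions, Nlrp5, Ooep, Tle6, Padi6 and Nlrp2 were called lower and Zbed3 higher, of 8 tested. These are 62.5% and 12.5%, against 21.2% and 15.6% of all genes, and 3 were lower with a variance for each group. Padi6 fell from 197, 189, 247 and 265 to 57.6, 85.6 and 80.9, and Ooep from 257, 248, 298 and 316 to 126, 129 and 109.9. The very abundant Zbed3 rose from 4482, 4402, 4476 and 4561 to 7637, 8445 and 7142, a difference of 0.79 (SE 0.07, adjusted p = 0.000135). Of 32 zona proteins and oocyte growth factors, 14 were called lower (43.8%) and 7 higher (21.9%), and 9 were lower with a variance for each group. Zp3, a sperm receptor of the zona, fell from 28.7, 26.1, 29.8 and 32.2 to 12.4, 16.2 and 15.6, and the growth factor Gdf9 from 224, 211, 308 and 306 to 135, 175 and 119.5, a fall not called with a variance for each group (adjusted p = 0.0895). Its partner Bmp15 was not called, at 383, 415, 401 and 374 and 414, 387 and 605. Of 23 genes of the germ-cell Tudor and small RNA pathway, 8 were called lower (34.8%, against 21.2% of all genes) and 0 higher. Tdrd5 was at 28.6, 30.1, 30.7 and 29.6 and then at 4.91, 6.09 and 6.75.

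Of 37 factors of maternal RNA decay 7 were called higher (18.9%) and 6 lower (16.2%), close to the 15.6% and 21.2% of all genes, and 4 and 4 with a variance for each group. Btg4, the adaptor that brings the CCR4-NOT deadenylase to maternal RNA, rose from 1017, 1120, 965 and 894 to 1671, 1672 and 1895, a difference of 0.81 (SE 0.09, adjusted p = 0.000507). Pan2 and Pan3, subunits of another deadenylase, rose by 0.78 and 0.92. Pabpn1l, a poly(A)-binding protein of the egg, fell from 59.2, 49.1, 76.8 and 86.3 to 13.5, 14.5 and 9.97. Of 28 storage and translation factors 8 were called higher (28.6%) and 10 lower (35.7%), or 3 and 8 with a variance for each group. Zar1l, an egg RNA-binding protein, fell from 213, 198, 215 and 267 to 38.7, 22.2 and 44.4, and Cpeb1, which binds the cytoplasmic polyadenylation element, from 35.7, 37.8, 40.3 and 39.0 to 11.5, 9.59 and 16.2. Pabpc1, the poly(A)-binding protein of somatic cells, rose from 1.58, 1.68, 1.50 and 1.11 to 7.04, 3.41 and 5.96.

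Dnmt1, the maintenance DNA methyltransferase, fell from 252, 263, 309.8 and 319 in the zygotes to 65.1, 67.3 and 64.1 at E2C, with the 3 E2C libraries close together. Its difference was -2.10 (SE 0.10, adjusted p = 1.49e-05). Its partner Uhrf1 went from 203, 204, 256 and 245 to 194, 162 and 163, a difference of -0.39 (adjusted p = 0.0341), and was not called without E2C replicate 2 (adjusted p = 0.0804) or with a variance for each group (adjusted p = 0.229).

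Importin alpha and heat shock genes moved in both directions. Importin alpha proteins carry other proteins into the nucleus. Of 5 of their genes, 3 were called higher (60.0%) and 1 lower (20.0%), against 15.6% and 21.2% of all genes. With a variance for each group the counts were 1 and 1. Kpna2 fell from 371, 393, 327 and 311 to 107, 119.9 and 184, a difference of -1.38 (SE 0.18, adjusted p = 0.00093). Kpna1 was under 1 in every zygote library, at 0.202, 0.210, 0.283 and 0.275, and at 6.34, 5.49 and 3.80 at E2C, a difference of 2.30 (SE 0.21, adjusted p = 0.000195). Among 29 heat shock genes 6 were called higher (20.7%) and 11 lower (37.9%), against 15.6% and 21.2% of all genes. Hsp90aa1, a chaperone abundant in eggs, fell from 726, 809.5, 556 and 554 to 141, 128 and 199, while Hspa2 rose from 2.49, 2.27, 1.71 and 2.06 to 11.2, 11.3 and 21.2 and the inducible Hspa1a from 0.709, 0.466, 0.927 and 0.876 to 7.15, 5.60 and 6.53. Hspa1b, a near-identical copy of Hspa1a, was at 2.26, 2.27, 2.56 and 3.41 and 11.1, 2.70 and 8.31 and was not called (adjusted p = 0.062), but was called higher without E2C replicate 2 (adjusted p = 0.000379).

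The BAF subunits were called higher in 3 of 25 (Actb, Brd7, Bcl7c; 12.0%) and lower in 3 (Brd9, Smarce1, Dpf3; 12.0%), below the shares of all genes. Smarca4 was at 29.6, 30.7, 30.9 and 33.3 and 31.7, 34.9 and 19.1 and was not called (adjusted p = 0.54), and its relative Smarca2 was at 62.6, 64.7, 54.0 and 51.4 and 68.7, 52.2 and 56.1 (adjusted p = 0.935). Brd9, of the noncanonical complex, fell from 25.5, 26.1, 26.4 and 26.2 to 11.6, 13.3 and 12.4, and Brd7, of the polybromo complex, rose from 43.5, 43.7, 39.4 and 34.4 to 89.5, 109.6 and 70.8. Of 38 other remodelling genes 9 were called higher (23.7%) and 6 lower (15.8%), against 15.6% and 21.2% of all genes. With a variance for each group the counts were 4 and 2. Hdac1 rose from 2.98, 3.38, 2.96 and 3.75 to 10.9, 11.9 and 11.2 and Mta2 from 0.203, 0.490, 0.750 and 0.562 to 4.85, 5.93 and 4.69, both of the NuRD deacetylase complex. Kdm5b, an H3K4 demethylase, was under 1 at PN3 and rose from 0.597, 0.727, 0.641 and 0.484 to 6.02, 7.95 and 4.26.

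In the machinery of RNA polymerase II, 12 of 67 genes were called higher (17.9%) and 19 lower (28.4%), against 15.6% and 21.2% of all genes. With a variance for each group the counts were 7 and 15. Hexim1, which holds the elongation kinase P-TEFb inactive, rose from 0.139, 0.316, 0.308 and 0.572 to 12.4, 15.9 and 7.76, a difference of 3.24 (SE 0.26, adjusted p = 0.00011). Cdk9, the kinase itself, rose from 1.19, 1.34, 1.58 and 1.35 to 4.88, 12.9 and 3.72. Polr2d, a subunit of the polymerase, fell from 58.3, 54.0, 55.8 and 68.3 to 16.8, 12.6 and 15.0, and Polr2k, a small subunit shared with the other nuclear polymerases, from 14.0, 13.3, 13.6 and 15.9 to 0, 0 and 3.71. Med17, of the Mediator head, fell from 43.0, 48.5, 55.1 and 51.5 to 7.69, 5.87 and 10.3.

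Other large falls outside the lists were of varied function. Gm813 went from 181, 187, 196 and 187 to 7.48, 10.3 and 13.7, a difference of -4.07 (SE 0.17, adjusted p = 1.16e-05). Txnip, the thioredoxin-interacting protein that responds to glucose, went from 174, 180.2, 199 and 193 to 11.7, 22.9 and 18.2, and Zcrb1, of the minor spliceosome, from 162, 157, 146 and 179 to 16.9, 11.8 and 19.8. Rnaset2a, a lysosomal RNase, was at 24.6, 22.9, 28.4 and 30.8 at PN3 and is listed at 0 in every E2C and L2C library. Its near-identical copy Rnaset2b, named after its values were seen, was at 16.0 ± 1.78 (SD, n = 4) and 2.90 ± 2.62 (SD, n = 3), and the division of fragments between the copies is unknown. Of the 2066 genes called lower, 476 were at 0 in E2C replicate 2 and 21 in all 3 E2C libraries.

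Single-exon genes were called higher in 31.9% and lower in 16.6% of 656, with a median of 0.21. Their overlap with the small nucleolar RNA, small nuclear RNA and histone lists above was not counted, so exon number may not be a separate trait. Medians were -0.20 for genes of 2 to 3 exons, -0.17 for 4 to 10 and -0.07 for 11 or more. By transcript length the medians were -0.27, -0.18, -0.10 and 0.02 from the shortest to the longest quartile, and 26.0% of the shortest and 15.4% of the longest quartile were called lower. The shortest quartile also held the largest share called higher, 18.7% against 15.6% in the longest. FPKM is divided by length, and the part of that correction in these medians was not tested.

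The step was set beside the net change from MII oocyte to L2C embryo. Of 9575 genes measured in both, 31.2% were called higher and 39.8% lower from MII to L2C. Of 1486 genes called higher from PN3 to E2C, 958 (64.5%) were higher over the whole span and 141 lower. Of 2055 called lower, 1463 (71.2%) were lower over the span and 190 higher. For genes at least 2-fold higher the share was 379 of 419 (90.5%), and for those at least 2-fold lower 749 of 1039 (72.1%). Of the 454 genes at least 2-fold higher, 160 were under 1 in every PN3 library and could enter the test only through E2C. The median MII level of the 454 was 1.22, so a net fall could hardly show for many of them, and their share is partly set by selection.

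Of the 454 genes at least 2-fold higher, 183 (40.3%) had an L2C mean at least 2 times the E2C mean, against 25.5% of all genes tested. The share was as high among the 1042 genes at least 2-fold lower, at 437 (41.9%), so it is not particular to genes that rose. An L2C mean at least 2 times lower was found for 71 of the 454 (15.6%), against 21.8% of all genes, and 200 lay between. The E2C libraries that chose these genes also enter these ratios. Dux had means of 0.0191 at MII and 0.859 at L2C, so that its highest level of the 4 stages was at E2C. Kpna1, Ccne1, Mta2 and the phosphate transporter Slc34a2 rose on to L2C means of 44.8, 166, 126 and 174. Falls could turn back, with wide spread: Psma6 had an L2C mean of 32.0, from libraries at 56.05, 25.9 and 14.0. Rars had an L2C mean of 54.0 ± 24.1 (SD, n = 3), near its MII mean of 52.7 ± 2.17 (SD, n = 3). Dnmt1 and Gm813 fell on to 40.6 and 3.70. For some genes L2C replicate 3 stood apart: Zscan4d was at 4.33, 4.64 and 33.5 and Btg4 at 458, 539 and 1144 in L2C replicates 1 to 3. Dnmt1 was close together, at 44.9, 36.3 and 40.5.

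**Figure D5:**
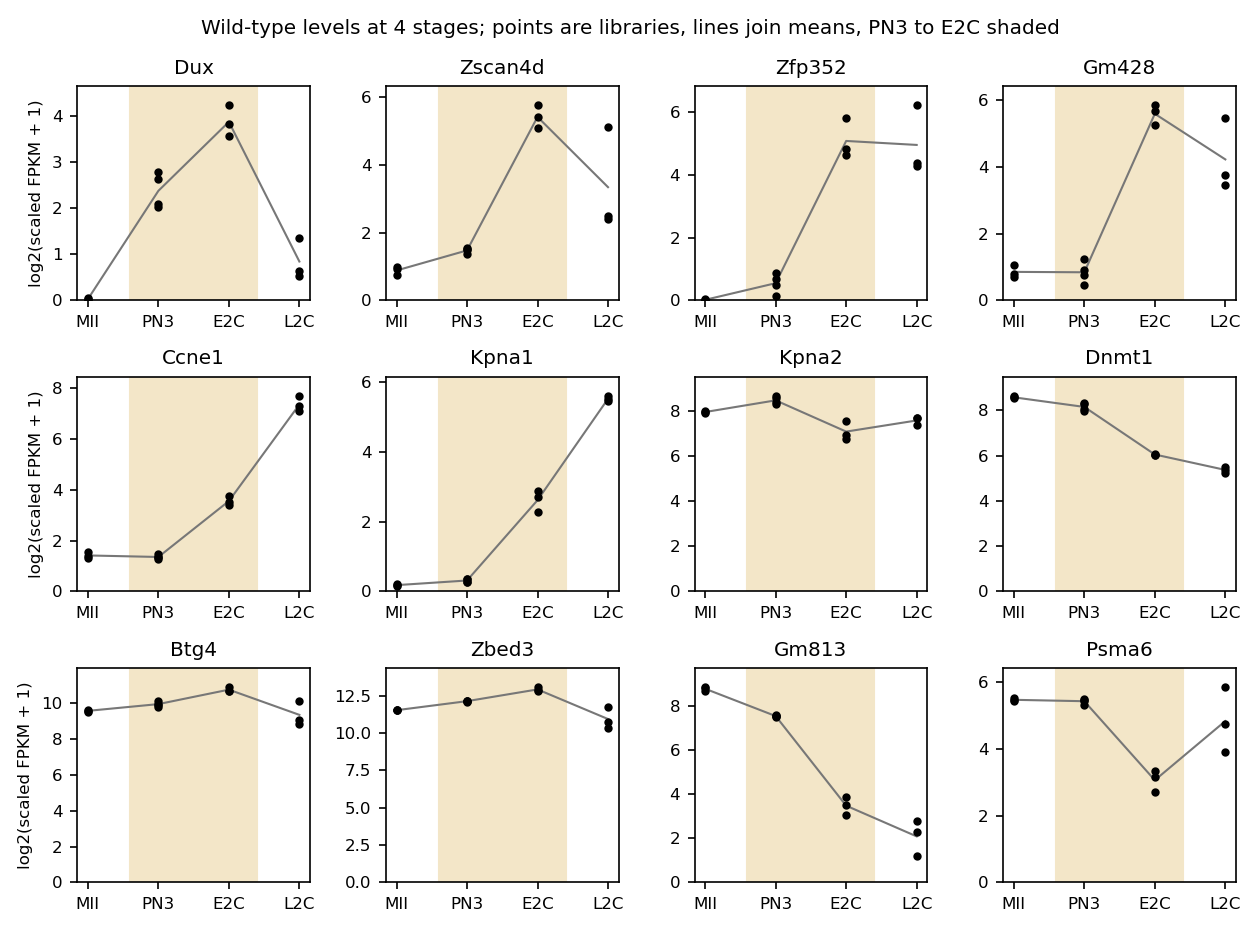
Levels of 12 genes in wild-type MII oocytes, PN3 zygotes, E2C and L2C embryos, as log2(scaled FPKM + 1), with 1 point per library, lines through the means and the step from PN3 to E2C shaded. Dux is highest at E2C, Ccne1 and Kpna1 rise on to L2C, Dnmt1 and Gm813 fall at each stage, and Psma6 is lowest at E2C.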

How the data were processed

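The authors deposited FPKM per gene symbol for each library. Tools listed, per the submitters' processing notes, were HISAT2, HTSeq, StringTie and Trim Galore 0.4.5, with mm10 (GRCm38) as the genome. Which tool made the values, and the treatment of strand and of fragments shared by copies, are not stated in the sources used here. Because FPKM carries no read depth, no counting error could be given. Here the 7 libraries were scaled by median ratios over the 7148 genes with FPKM of at least 1 in all 7, and log2(scaled FPKM + 1) was tested with limma 3.58.1 (trend, robust; R 4.3.3), with Benjamini-Hochberg adjustment over 9754 genes and a threshold of 0.05. MII and L2C libraries were fitted separately. Scripts used python 3.11.15, numpy 2.4.6, pandas 2.3.3 and matplotlib 3.10.9. The fits were tested on simulated data with far fewer changed genes than were called here. There the share of false calls exceeded the threshold with a single spread and, by less, with a variance per group.

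Named genes are the 12 largest rises and falls that were called, did not overlap between groups, had a mean of at least 10 in the higher group and kept the call without E2C replicate 2; up to 3 called rises and 3 called falls per list; and a list of watched genes. The members and lists were chosen with earlier results of these data known. Alternatives were FPKM as deposited, TPM, a pseudocount of 0.1, 2 other filters, a variance per group, 1 fit over 25 libraries, a replicate block and leaving out each library.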

Additional observations from a re-analysis of the deposited data

Results flagged for a closer look

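Taf1b, of the selectivity factor of RNA polymerase I, had 1 zygote library apart from the others: PN3 replicate 4 was at 19.96, and the other PN3 libraries were at 23.0, 23.1 and 22.7. Its gap to the nearest library, as a share of the range of the group, exceeded the 95% limit of Dixon's test for 4 samples. Chance gives about 1 such result in 20 groups, and 126 named genes were examined.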

How the results depend on the processing

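Direction held more firmly than the number of calls. With a variance for each group, 2289 genes were called in all (857 higher), 22 histone genes were called higher and 9 zona and oocyte growth factor genes lower. With FPKM as deposited, 898 were called higher. With FPKM of at least 1 in all 7 libraries, a filter that removes genes low in either group, 828 genes changed at least 2-fold (231 higher, 597 lower), 7 of 14 2-cell genes were called higher, and 19 mitochondrial ribosomal and 17 respiratory chain genes lower. Leaving out 1 library at a time gave 19 to 39 respiratory chain genes called lower. The labels do not say whether same-numbered libraries are paired, and the main fit did not pair them. The correlations of their deviations were -0.0751, -0.0275 and -0.1152, and those of differently numbered libraries ranged from -0.1545 to 0.1813. The deviations were taken from the means of few libraries, so these values cannot decide the question. With a replicate block 1978 genes were called (772 higher, 1206 lower) and 9 zona and oocyte growth factor genes lower.

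Of the 126 named genes that were followed, 15 lost the call with a variance for each group (adjusted p of 0.051 for Tbx3 to 0.229 for Uhrf1) and 13 with the replicate block. Calls were also lost with FPKM as deposited (Actb, Fars2, Odf2, Psmd3), with TPM (Fars2, Odf2), in the fit over 25 libraries (Prm2) and without a filter (Esrrb, Fars2, Lars2, Mos, Nlrp2, Uhrf1). Leaving out 1 library lost 1 to 9 calls. Esrrb and Fars2 were lost without each PN3 library in turn and without E2C replicates 1 or 3, Nlrp2 and Setdb1 without each PN3 library in turn, and Obox3 without PN3 replicate 1 or E2C replicates 1 or 3. Mos was lost without PN3 replicates 2, 3 or 4 or E2C replicate 3, Uhrf1 without PN3 replicates 3 or 4 or E2C replicates 2 or 3, Lars2 without PN3 replicates 1, 2 or 4, and Tbx3 without PN3 replicates 1, 3 or 4. Odf2 was lost without PN3 replicates 1 or 3, Prm2 without 2 or 4, and Dpf3 without 1. The adjusted p-values of these ranged from 0.05004 (Obox3) to 0.1105 (Esrrb). Hspa1b was called higher without E2C replicate 2, in the fit over 25 libraries and with FPKM of at least 1 in all 7, and Klf17 in the fit over 25 libraries and without E2C replicate 1. Genes that changed sign were not called. With FPKM as deposited the differences were -0.001 for Bmp15, -0.103 for Ccnb1, -0.110 for Nr5a2 and -0.207 for Smarca2. With TPM they were -0.003 for Nr5a2 and -0.094 for Smarca2, and with the replicate block -0.040 for Smarca2. Leaving out 1 library at a time gave -0.078 to 0.256 for Ccnb1, -0.076 to 0.272 for Nr5a2, -0.091 to 0.126 for Smarca2 and -0.297 to 0.096 for Smarca4. The causes were not tested. Unknown depth limits genes listed at 0, above all in E2C replicate 2.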
